A study of Mus musculus with 6 samples.

Results

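The 6 genes of the Wnt pathway described here were followed in presomitic mesoderm (PSM), the unsegmented tissue from which somites form: the ligands Wnt3a and Wnt5b, the secreted potentiator Rspo3, the transcription factors Lef1 and Sp5, and the secreted inhibitor Dkk1. They were chosen by symbol, as every probe set of the deposited table annotated to exactly 1 of these 6 symbols, which gave 6 of 10290 genes and 10 of 19551 probe sets. Wnt5b, Rspo3, Lef1 and Dkk1 had 2 probe sets each, and Wnt3a and Sp5 had 1 each. The mutant genotype was R26R AC/AC;T-Cre and the control genotype R26R AC/AC, both on a background labelled C57BL6/6J and taken at embryonic day 8.75, so embryos of both genotypes carried 2 copies of the AC allele at the ROSA26 locus. T-Cre is a Cre recombinase under the promoter of T (Brachyury), which acts in the primitive streak and the mesoderm that leaves it. The labels do not spell out AC. From the published work it is known as A-CREB, a protein that blocks DNA binding by CREB family members and is made once Cre has acted. No group carried T-Cre without the AC allele, so effects of Cre and of AC cannot be told apart. Each of the 3 mutant and 3 control arrays held RNA of 1 pool of 3 PSMs, dissected as the anterior part after the posterior part and the somites had been cut away.

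Wnt ligands bind Frizzled receptors and the co-receptors Lrp5 and Lrp6. In the canonical branch this stabilises β-catenin, which enters the nucleus and acts with LEF and TCF proteins on target genes. In the mouse embryo Wnt3a is made in the primitive streak and tail bud, is required for paraxial mesoderm, and sets up Wnt activity that declines from posterior to anterior PSM. Rspo3, an R-spondin, binds Lgr receptors and keeps the ligases Znrf3 and Rnf43 from removing Frizzled. Wnt5b is known mainly for β-catenin-independent signalling. Lef1 is a DNA-binding partner of β-catenin, Sp5 is a zinc finger factor and a direct Wnt target, and Dkk1 blocks Lrp5 and Lrp6 and is itself a Wnt target.

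The promoters of Sp5 and Dkk1 are shown because these genes are known targets of LEF and TCF proteins and because their windows held more of the letters those proteins recognise than the other windows examined. Each stretch is the 250 bases before the gene's start, read 5′ to 3′ on the gene's own strand from RefSeq sequence of GRCm38.p6. Sp5 lies at chr2:70474673-70474922 on the plus strand and Dkk1 at chr19:30549497-30549746 on the minus strand. Capitals mark matches, on either strand, to 1 of 4 TCF/LEF heptamers.
Sp5: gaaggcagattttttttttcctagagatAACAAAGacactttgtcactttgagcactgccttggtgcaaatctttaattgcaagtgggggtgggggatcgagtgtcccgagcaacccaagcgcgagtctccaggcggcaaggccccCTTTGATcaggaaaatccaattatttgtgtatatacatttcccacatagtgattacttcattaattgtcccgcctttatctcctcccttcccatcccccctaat
Dkk1: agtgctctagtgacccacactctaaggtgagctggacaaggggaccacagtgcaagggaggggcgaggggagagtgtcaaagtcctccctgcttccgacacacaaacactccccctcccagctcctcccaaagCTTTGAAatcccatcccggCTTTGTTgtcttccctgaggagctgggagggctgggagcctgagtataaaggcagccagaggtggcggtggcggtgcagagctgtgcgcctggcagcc
The heptamers searched were CTTTGAA or CTTTGAT or CTTTGTA or CTTTGTT. Counted from the gene's start, with −1 as the last base before it, Sp5 had CTTTGTT on the opposite strand at −222 to −216 and CTTTGAT at −104 to −98. Dkk1 had CTTTGAA at −117 to −111 and CTTTGTT at −98 to −92. No match overlapped another.

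Windows from 250 bases before to 50 after a start were supplied for 5 of the 6 genes, 10 windows in all, with Rspo3 named only. The 1 Wnt3a window, in which 86.3% of bases were G or C, held no TCF/LEF heptamer. One of 3 Wnt5b windows and 1 of 4 Lef1 windows held 1 match each. Over all 32851 mouse windows of this length, 16.9% held at least 1 match. The CREB element TGACGTCA and the TGACG half-site that it contains, searched because the series is about the CREB family, occurred in 0 of the 10 windows, against 1.79% and 20.8% of all windows. These are matches of letters and not measured binding, and a missing match says only that the letters are not in that window.

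All 10 probe sets had a lower mean log2 signal in mutant than in control pools, and 0 of the 7 that could be tested after a filter on low signal passed the test. Dkk1 had the lowest difference, at 56.8% of the control level, and Lef1, Wnt3a and Sp5 lay at 70.2 to 72.8%. Mutant and control pools were compared by limma on log2(signal + 1), as a linear model over all 11731 tested probe sets, and an adjusted p (Benjamini-Hochberg over all of them) under 0.05 was called a change. Of these probe sets, 0.69% were called in either direction and 0.443% were called lower in mutant. Unadjusted p lay under 0.05 for 4 of the 7 tested probe sets, all lower in mutant, against 7.47% of all tested probe sets that were lower with such a p. For 3 of the 7, all mutant pools lay below all control pools, which was so for 10.5% of all tested probe sets. The median log2 difference of the 7 was −0.46, and that of all tested probe sets 0.00. Because the genes were chosen with results of these data known, these counts describe them and are not independent support. In bulk tissue, fewer cells of a type and less RNA per cell cannot be told apart. Nothing in the labels says that the pools came from separate litters, so p-values measure the spread between these pools.

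**Figure D1:**
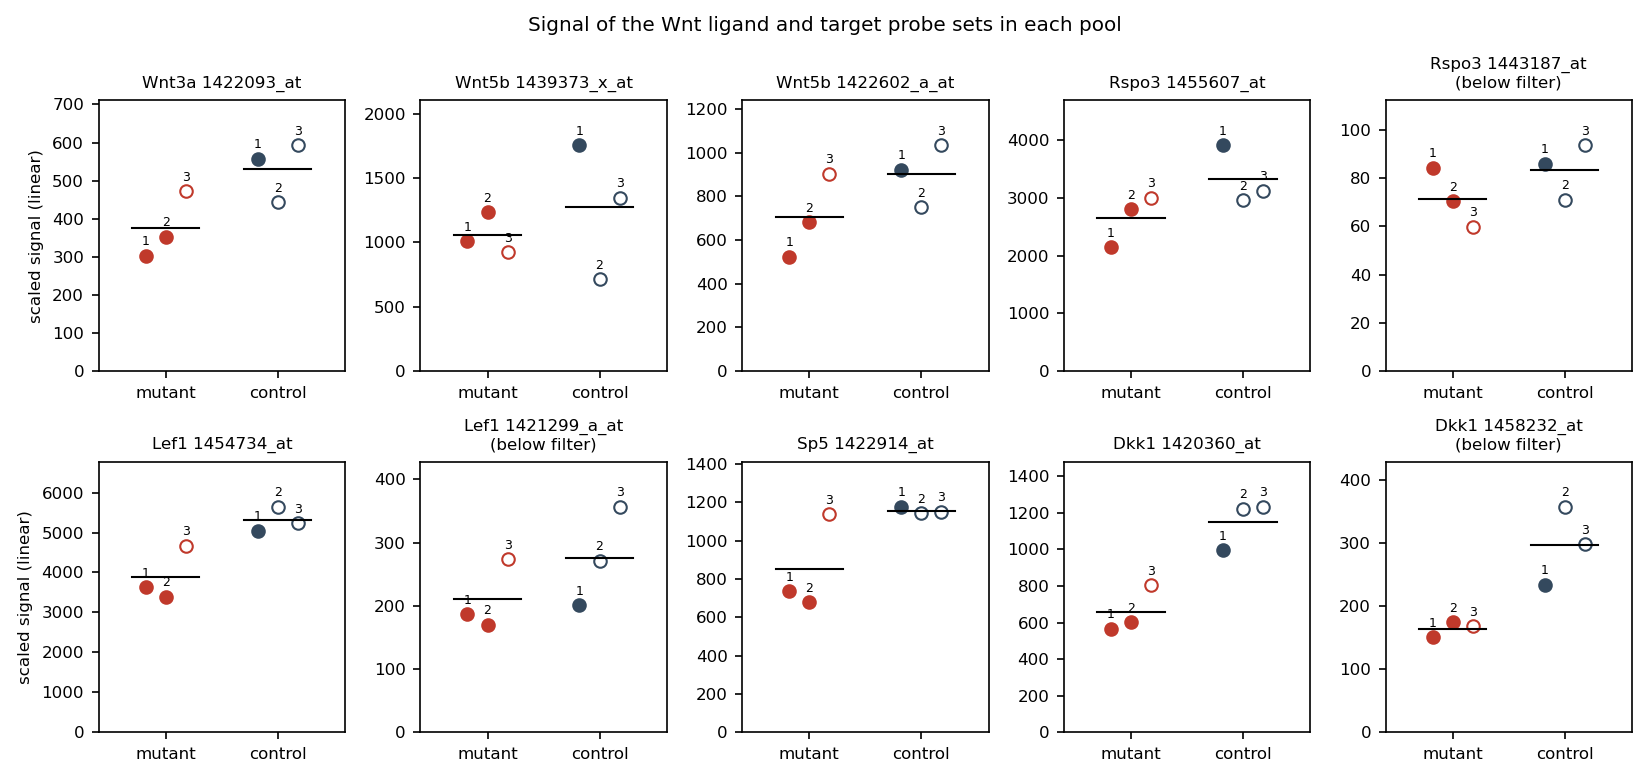
Scaled signal (linear axis from 0) of each of the 10 probe sets in the 3 mutant pools (red) and the 3 control pools (dark blue), with bars at the group means and the replicate number beside each point. Filled points are arrays with a 3' to 5' ratio of the dap spike-in above 15, open points are the others. Dkk1 is apart in both of its probe sets, and mutant 3 lies nearest to control in Wnt3a, Lef1 and Sp5.

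The arrays also differed in technical and sampling features. The 3' to 5' ratio of the dap transcript, which is added before labelling, was 23.8, 19.6 and 10.2 in mutant 1, 2 and 3 and 22.9, 12.2 and 11.1 in control 1, 2 and 3, so that mutant 1, mutant 2 and control 1 stood above 15. Differences are therefore also given within the arrays above that ratio (2 mutant, 1 control) and within those below it (1 mutant, 2 control), as values with no test. Of the 8 listed markers of PSM 7 had a probe set, with Lfng and Mesp2 below the filter, and their summed signal was 4319 to 6643 in mutant and 7629 to 9494 in control pools. Sums for all 8 surface ectoderm markers were 22215 to 23980 in mutant and 15072 to 16670 in control pools, and for 6 of 6 gut endoderm markers 8849 to 11684 and 6947 to 8528. Sox17 of the gut endoderm list had a negative difference (−1.06, adjusted p = 0.0507), with means of 288 in mutant and 593 in control pools. For 6 of 7 blood markers they were 44356 to 62120 in mutant and 31573 to 44015 in control pools. For 6 of 8 endothelial markers they were 5321 to 7987 in mutant and 9837 to 10745 in control pools, and for 5 of 7 lateral and intermediate mesoderm markers 3201 to 3851 and 6068 to 6344. Hbb-y and Hbb-bh1 gave the largest part of the blood sum, and pools of Hbb-y and Hba-x overlapped between genotypes. Aplnr gave the largest part of the endothelial sum. The endothelial differences ran from −0.82 (Kdr) to −0.06 (Cdh5), with −0.10 for Tek, and the lateral ones from −1.32 (Prrx1) to 0.00 (Osr1). In these 2 lists, pools of Cdh5, Tek, Osr1 and Isl1 overlapped between genotypes. The sums of the 3 formed somite, 5 neural tube and 2 notochord and floor plate markers with a probe set overlapped between genotypes. Pax6 of the neural tube list, below the filter, did not overlap, with 289 to 415 in mutant and 192 to 230 in control pools. By limma, Ripply2 of the PSM list, Kdr of the endothelial list and Hand2 and Prrx1 of the lateral list were called lower, Epcam of the surface ectoderm list was called higher, and no other marker was called. No marker was at 0, and the lowest signal of any probe set on any array was 12.7. The part of cell makeup and of the dap ratio in the results was not tested.

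Dkk1, the inhibitor, had signals of 566, 601 and 804 in mutant 1, 2 and 3 and 997, 1221 and 1232 in control 1, 2 and 3 by its brighter probe set, 1420360_at. Every mutant pool lay below every control pool. The log2 difference was −0.82 (SE 0.17, 95% confidence interval −1.19 to −0.44, n = 3 pools per genotype, limma adjusted p = 0.0707), which puts mutant at 43.8 to 73.5% of control. It missed the threshold among all probe sets and passed it where each gene was represented by its brightest probe set alone (adjusted p = 0.0357, in a fit that called 1.1% of genes lower). With the dap ratio split as a block in the model it was −0.69 and passed (adjusted p = 0.00480), and it passed with the replicate number as a block (adjusted p = 0.0337). With 1 array left out it passed without mutant 3 (adjusted p = 0.0305) and without control 1 (0.0329), but not without mutant 1 (0.274), mutant 2 (0.264), control 2 (0.212) or control 3 (0.231). Of all tested probe sets, 2.67% were called lower and 2.06% higher with the dap ratio block, and 0.588% were called lower with the replicate block, 0.776% without mutant 3 and 0.708% without control 1. Within the arrays above the dap ratio of 15 the difference was −0.77, and within the others −0.61.

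The other Dkk1 probe set, 1458232_at, was below the filter. Its signals were 151, 174 and 168 in mutant 1, 2 and 3 and 234, 357 and 298 in control 1, 2 and 3, again with no overlap, which was so for 8.19% of all probe sets without the filter. In the fit without a filter, in which 0.317% of probe sets were called lower, it had −0.83 (SE 0.20, 95% confidence interval −1.27 to −0.39, adjusted p = 0.104). With 1 array left out its adjusted p was 0.0371 without control 1 and 0.121 to 0.392 in the other 5 fits, and it was 0.0425 with the dap ratio block. Both Dkk1 probe sets thus gave mutant pools at about the same share of control, 56.8% and 56.3%. The arrays above and below the dap ratio gave −0.53 and −0.95 for the dimmer one, the opposite order from the brighter one.

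Lef1 had signals of 3628, 3395 and 4665 in mutant 1, 2 and 3 and 5042, 5641 and 5240 in control 1, 2 and 3 by 1454734_at. The groups did not overlap, and mutant 3 was the nearest to control. The log2 difference was −0.46 (SE 0.13, 95% confidence interval −0.75 to −0.17, adjusted p = 0.163). With 1 array left out it passed only without mutant 3 (−0.60, adjusted p = 0.0446), and the other 5 fits gave adjusted p between 0.123 and 0.497, with the smallest difference in size, −0.37, without mutant 2. With the dap ratio block, which called 2.67% of all tested probe sets lower, it was −0.37 and passed (adjusted p = 0.0480). It was −0.52 within the arrays above the dap ratio of 15 and −0.22 within the others. The other Lef1 probe set, 1421299_a_at, was below the filter and overlapped, with 187, 170 and 274 in mutant and 201, 271 and 357 in control pools (−0.38, SE 0.25, 95% confidence interval −0.94 to 0.17). With the dap ratio block it had −0.18 and did not pass (adjusted p = 0.662). Its suffix marks a probe set that matches several transcripts of a gene.

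Sp5, the target, had signals of 735, 678 and 1136 in mutant 1, 2 and 3 and 1175, 1142 and 1149 in control 1, 2 and 3. Mutant pools averaged 849.7 ± 249.8 (SD, n = 3) and control pools 1156 ± 17.5 (SD, n = 3), so the spread was among the mutant pools. Mutant 1 and 2 were at 63.6% and 58.7% of the control geometric mean and mutant 3 was at 98.3%, so the genotypes did not overlap but nearly met. The log2 difference was −0.48 (SE 0.19, 95% confidence interval −0.90 to −0.06, adjusted p = 0.307). With 1 array left out it ran from −0.71 without mutant 3, the only such fit in which it passed (adjusted p = 0.0480), to −0.34 without mutant 2, and adjusted p in the other 5 fits was 0.260 to 0.695. Within the arrays above the dap ratio of 15 it was −0.73, and within the others −0.01.

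Wnt3a, the canonical ligand, had signals of 303, 353 and 472 in mutant 1, 2 and 3 and 558, 444 and 593 in control 1, 2 and 3. Mutant 3 lay above control 2, so the genotypes overlapped by 1 pool. The log2 difference was −0.51 (SE 0.20, 95% confidence interval −0.95 to −0.07, adjusted p = 0.297), and it was −0.77 within the arrays above the dap ratio of 15 and −0.12 within the others. With the dap ratio block it was −0.44 and did not pass (adjusted p = 0.178). With 1 array left out it ran between −0.69 (without mutant 3) and −0.37 (without mutant 1), and its smallest adjusted p in these fits was 0.124. The summed signal of 5 of 7 tail bud and primitive streak markers, the tissue in which Wnt3a is made, was 7733, 9752 and 11916 in mutant 1, 2 and 3 and 10902, 9712 and 11790 in control 1, 2 and 3. As for Wnt3a, mutant 1 was the lowest pool in that sum. Mutant 3 was the highest of all pools in the sum, whereas for Wnt3a it lay below control 1 and control 3. The part of tail bud tissue in the Wnt3a values was not tested. T and Mixl1, which are also on that marker list, were not analysed here.

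Wnt5b had probe sets that differed in how the pools were ordered. By 1422602_a_at its signals were 524, 682 and 904 in mutant and 921, 749 and 1033 in control 1, 2 and 3, with a log2 difference of −0.38 (SE 0.21, 95% confidence interval −0.85 to 0.09, adjusted p = 0.471). By 1439373_x_at, a kind that can cross-hybridise, they were 1009, 1237 and 922 in mutant and 1755, 712 and 1348 in control pools. This second probe set had a mutant SD of 162 against a control SD of 526, and its difference was −0.18 (SE 0.29, 95% confidence interval −0.83 to 0.46, adjusted p = 0.832). Its sign turned to 0.10 without control 1. Neither probe set fixed the direction of Wnt5b, since both intervals included 0. Within the arrays above and below the dap ratio of 15, the values were −0.62 and 0.04 by the first and −0.65 and −0.09 by the second.

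Rspo3, the potentiator, had signals of 2150, 2802 and 3003 in mutant 1, 2 and 3 and 3912, 2959 and 3122 in control 1, 2 and 3 by 1455607_at. Mutant 3 lay above control 2, and the genotypes overlapped by that pool. The log2 difference was −0.33 (SE 0.16, 95% confidence interval −0.68 to 0.02, adjusted p = 0.396), which allows mutant levels between 62.3% and 101% of control. Within the arrays above the dap ratio of 15 it was −0.67, and within the others −0.02. Leaving out 1 array gave values between −0.43 and −0.19, the smallest in size without mutant 1. Its other probe set, 1443187_at, read 59.8 to 84.3 in mutant and 71.1 to 93.7 in control pools, far below the filter at a geometric mean signal of 349, and had −0.23 (95% confidence interval −0.75 to 0.29).

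**Figure D2:**
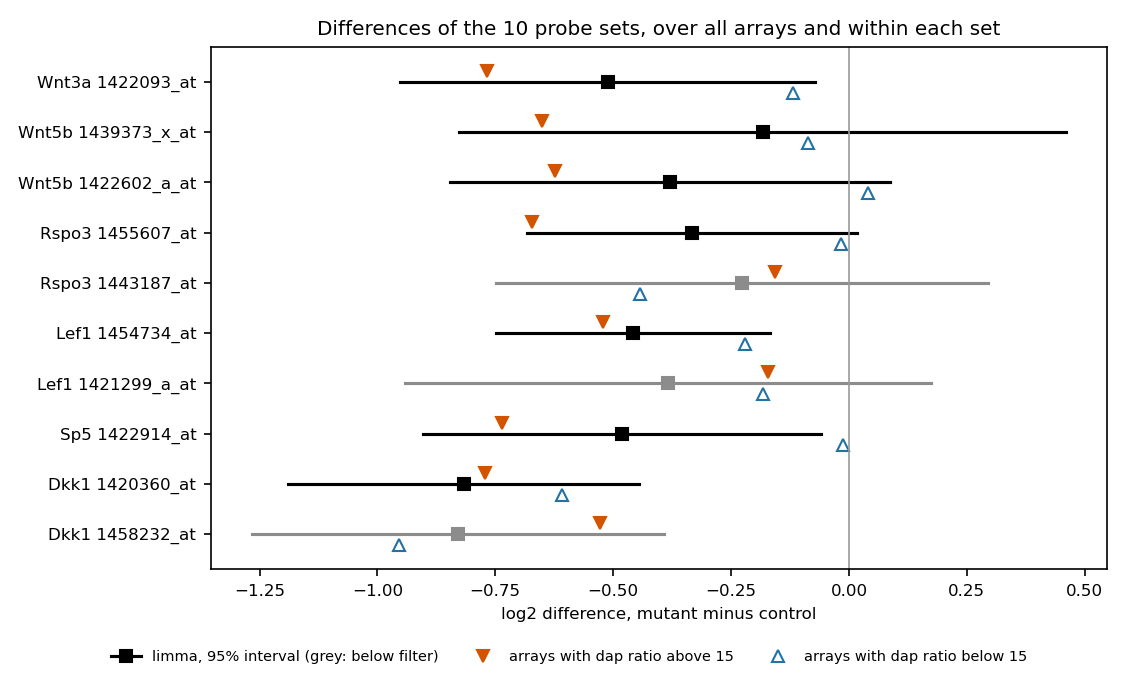
Log2 difference, mutant minus control, of each of the 10 probe sets (squares, with 95% confidence intervals from limma, grey for the 3 below the filter), and the same difference within the 3 arrays above (triangles pointing down) and the 3 below (open triangles) the dap ratio of 15. In the 7 tested probe sets the difference is lower within the arrays above the ratio, with the widest gap in Sp5 (−0.73 and −0.01). The 3 below the filter have the opposite order: −0.16 and −0.44 for Rspo3, −0.17 and −0.18 for Lef1, and −0.53 and −0.95 for Dkk1. Mutant 3 is the only mutant array below the ratio, and the same count over all probe sets was not made.

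Mutant 3 was the mutant pool nearest to control in most of these probe sets. It had the highest signal of the 3 mutant pools in 6 of the 7 tested probe sets, the exception being Wnt5b by 1439373_x_at. The same pool was highest in 40.5% of all tested probe sets, and in 51.8% of those with a negative difference. Against the control geometric mean it stood at 70.3% for Dkk1, 88.0% for Lef1, 89.5% for Wnt3a, 90.8% for Rspo3 and 98.3% for Sp5. Mutant 1, by the same probe sets, stood at 49.5%, 68.4%, 57.5%, 65.0% and 63.6%. Over all 10 probe sets, mutant 3 was the highest mutant pool in 7. By the dimmer Rspo3 probe set mutant 3 was the lowest, at 72.3% against 101.5% for mutant 1. By the dimmer Dkk1 probe set it was at 57.7%, below mutant 2 at 59.8%. Without mutant 3, 3 of the 7 tested probe sets passed the test (Dkk1, Lef1 and Sp5), in a fit that called 149 of 11731. Mutant 3 is also the mutant array below the dap ratio of 15, so the pool and that ratio cannot be told apart among mutants.

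The profiles nearest to the brightest probe set of each gene over the 6 arrays were found by the root mean square difference between log2 values centred on the control mean, among 10693 tested probe sets of other genes (10692 for Wnt5b). Wnt3a was nearest to Etv5, an Ets factor induced by FGF signalling, at 0.08, and to Frzb, a secreted Wnt inhibitor, at 0.09, against a median distance of 0.45. Etv5 read 2294, 2581 and 3290 in mutant and 3916, 3461 and 3936 in control pools. It shared with Wnt3a the order of all mutant pools and the low value of control 2.

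Lef1 was nearest to Sort1, the sorting receptor sortilin, at 0.04 and to the non-coding RNA Meg3 at 0.05, with a median distance of 0.38. Dkk1 was nearest to Zdhhc3, a palmitoyltransferase, at 0.08 and to Olfm1, a secreted olfactomedin, at 0.08, with a median of 0.62. Sp5 lay nearest to Fam53a at 0.04 and Son, a splicing factor, at 0.08. The nearest to Rspo3 were Ncapg, a condensin subunit, and Pdcl, at 0.04 and 0.05. For Wnt5b only 1439373_x_at, its brighter probe set, was searched, and the nearest were Galnt11, a glycosyltransferase, at 0.16, and Pgd, an enzyme of the pentose phosphate pathway, at 0.19. These distances describe 6 arrays, 3 of which share a genotype and a direction of change, and the genes named were picked for being near.

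Other genes of the pathway came from a list of 105 symbols grouped by role, of which 72 had a probe set and 57 were tested, each by its brightest one. Of the 57, 0 were called higher and 0 called lower by limma, against 0.247% and 0.443% of all tested probe sets. Unadjusted p lay under 0.05 for 7 that were lower and 2 that were higher, against 7.47% and 6.16% of all tested probe sets. Negative differences were seen in 42 of the 57, with a median of −0.12, against 50.4% of all tested probe sets.

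Among 12 tested targets of Wnt signalling, 11 had negative differences, with a median of −0.25, against 50.4% of all tested probe sets that were negative. By limma, 3 of the 12 were lower with an unadjusted p under 0.05, against 7.47% of all tested probe sets. All mutant pools lay below all control pools for 3 of the 12, against 10.5%. Tbx6, a T-box factor that specifies paraxial mesoderm, read 297, 275 and 412 in mutant 1, 2 and 3 and 501, 607 and 541 in control 1, 2 and 3 (−0.76, SE 0.18, adjusted p = 0.102). Dll1, a Notch ligand of the PSM, read 1743, 1590 and 2844 in mutant and 3089, 3497 and 3267 in control pools (−0.72, SE 0.20, adjusted p = 0.149). For both, all mutant pools were below all control pools and mutant 3 was nearest to them, and with 1 array left out both passed the test only without mutant 3 (adjusted p = 0.0432 and 0.0123). With the dap ratio block both passed (adjusted p = 0.0224 and 0.0198). Tbx6 and Dll1 are also on the list of PSM markers, whose sum was lower in mutant pools.

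Of the secreted or membrane-bound inhibitors on the list other than Dkk1, 4 were tested. All 4 had negative values, from −0.50 to −0.01 with a median of −0.11, and 50.4% of all tested probe sets were negative. Inhibitors below the filter went both ways in the fit without it. Cer1 had −0.70, Notum −0.24, Wif1 −0.05, Dkk3 0.26 and Sost 0.73. Frzb, which binds Wnt ligands outside the cell, read 1455, 1507 and 1918 in mutant and 2421, 2070 and 2393 in control pools, with no overlap (−0.50, SE 0.14, adjusted p = 0.145, and 0.0459 with the dap ratio block). Apcdd1, a membrane-bound inhibitor, had −0.14 (adjusted p = 0.709). The 10 tested receptors had a median of −0.07. Fzd6, a Frizzled of planar cell polarity, read 590, 568 and 601 in mutant and 385, 382 and 452 in control pools, all mutant pools being higher (0.53, SE 0.14, adjusted p = 0.122), whereas Fzd2 had −0.34 (adjusted p = 0.285).

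Only 2 other ligands were tested. Wnt5a, a ligand of β-catenin-independent signalling, read 2994, 3045 and 2960 in mutant and 3570, 3258 and 3779 in control pools, with no overlap and a difference of −0.23 (SE 0.10, adjusted p = 0.343). Wnt6, which surface ectoderm is known to make, had 0.60 (SE 0.29, adjusted p = 0.414), with 569 to 902 in mutant and 298 to 704 in control pools, which overlapped. With the dap ratio block Wnt6 had 0.85 and passed the test (adjusted p = 0.0108), as did Fzd6 (0.56, adjusted p = 0.0345). Surface ectoderm markers had higher sums in mutant pools, and their part in the Wnt6 and Fzd6 values was not tested. In the group of secretion and potentiation, Znrf3, the ligase against which R-spondins act, had 0.20 (adjusted p = 0.636), and the R-spondin receptor Lgr4 had 0.13 (adjusted p = 0.734).

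Inside the cell, 18 cytoplasmic components had a median of −0.11 and 8 nuclear factors one of −0.14. Vangl1, a planar cell polarity protein, had 0.60 (SE 0.23, adjusted p = 0.309) and, with the dap ratio block, 0.76 (adjusted p = 0.0177). Prickle2, of the same pathway, had −0.36 (adjusted p = 0.489). The Groucho co-repressors Tle4 and Tle3 had −0.42 (adjusted p = 0.290) and −0.15 (adjusted p = 0.572). Axin2, a feedback inhibitor that is widely read as a sign of canonical Wnt activity, had −0.22 (adjusted p = 0.646), a value chosen for mention after it was seen.

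**Figure D3:**
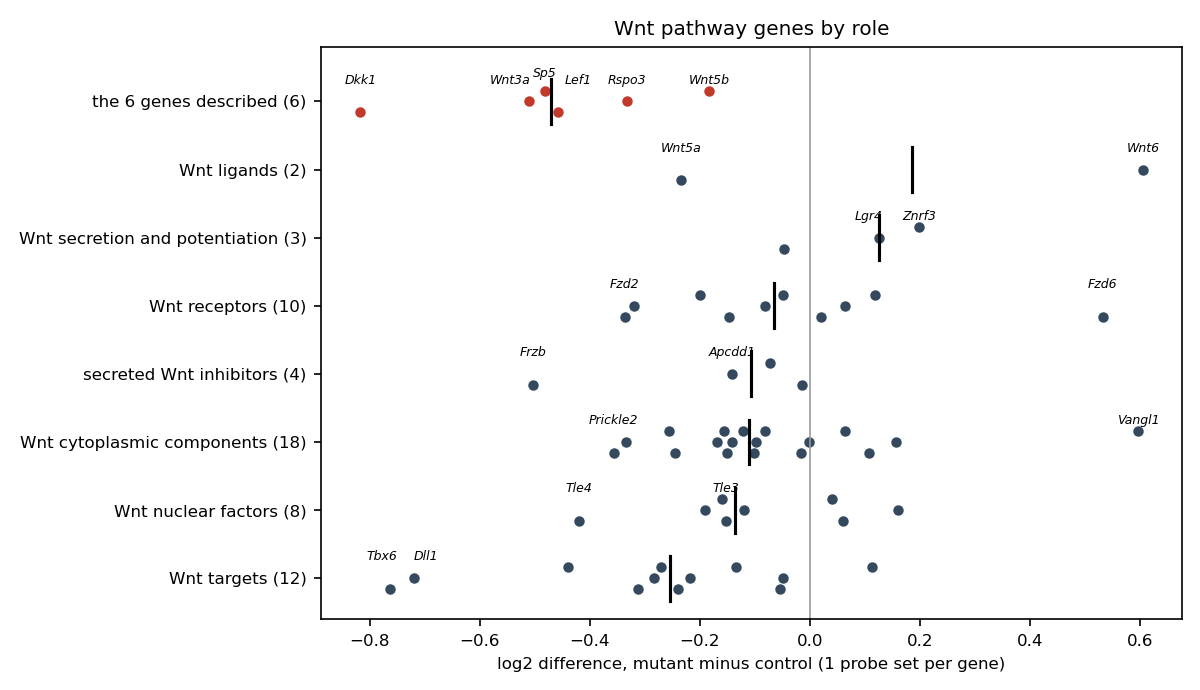
Log2 difference, mutant minus control, of the 6 genes described (red) and of 57 other tested Wnt pathway genes (dark blue) by role, each by its brightest tested probe set. Vertical ticks are medians, and named points are those in the text. The 6 genes lie between −0.82 and −0.18, and the other targets have a median of −0.25.

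Under other settings of the fit, Dkk1 by 1420360_at ran between −0.97 and −0.69, Lef1 by 1454734_at between −0.60 and −0.37, and Sp5 between −0.71 and −0.34. Adjusted p of Dkk1 lay between 0.00162, with array quality weights, and 0.274, without mutant 1.

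**Figure D4:**
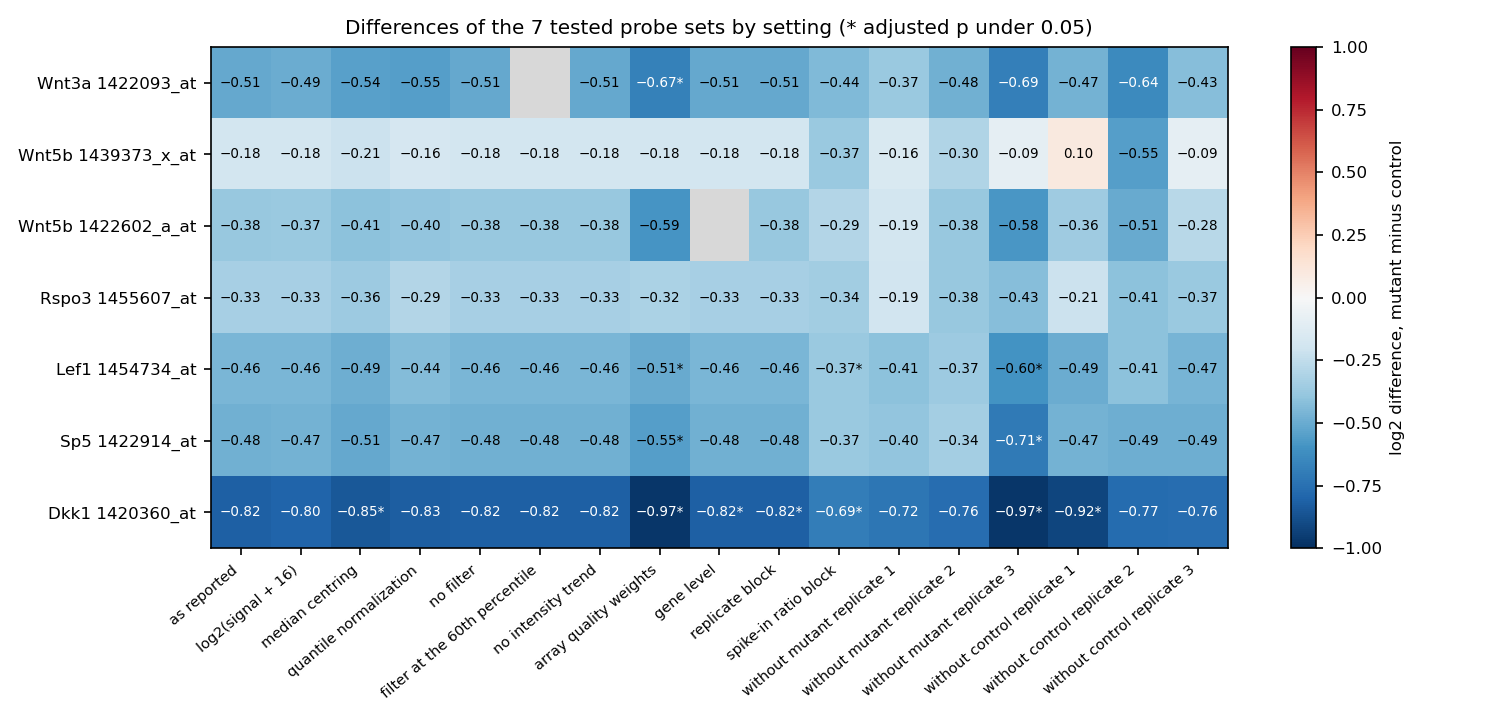
Log2 difference, mutant minus control, of the 7 tested probe sets (rows) under the reported fit and each alternative (columns), with stars where adjusted p was under 0.05 and grey where a setting dropped the probe set. Dkk1 has the darkest row, from −0.97 to −0.69, and Wnt5b by 1439373_x_at holds the only positive value, 0.10 without control 1.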

How the data were processed

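The deposited values are linear probe set intensities, already summarised and scaled per array by the authors. Affymetrix Expression Console and MAS5 are the tools listed, per the submitters' processing notes. The labels' protocols describe PicoPure extraction and 3' IVT labelling. Versions, scaling target, probe set selection and genome build are not given in the sources used here, and detection calls were not used here, so a dim probe set cannot be called absent. Of 19606 probe sets, 55 array controls were left out of the tests. The supplied annotation gave 17348 of the others exactly 1 symbol.

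Intensities were taken as log2(signal + 1), and probe sets with a mean below the 40th percentile (geometric mean signal 349) were left out. This left 11731 probe sets and 7 of the 10 described. limma 3.58.1 (R 4.3.3) fitted genotype over all 6 arrays, with an intensity trend, two-sided. A simulation with known changes was used to test the code. Probe sets below the filter are given from the fit without it. The brightest probe set stood for each other pathway gene. Named were all probe sets of the 6 genes, the 2 other genes of each role with the smallest p and any called, and the 2 nearest profiles of each gene's brightest probe set. Axin2, the inhibitors below the filter and the markers Ripply2, Kdr, Hand2, Prrx1, Epcam, Sox17 and Aplnr were named after their values were seen. So were Cdh5, Tek, Osr1, Isl1, Pax6, Hbb-y, Hbb-bh1 and Hba-x. The genes, lists and alternatives were chosen with earlier results of these data known. Replicate numbers were not treated as pairs, since the labels tie them to no shared litter or day. Residuals of equal numbers correlated at 0.20, −0.45 and 0.37, which does not settle whether pools were paired. The number of arrays limits the precision.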

Additional observations from a re-analysis of the deposited data

How the results depend on the processing

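The 10 probe sets kept a negative difference in 148 of 149 refitted values, each under 1 changed setting. The call was unchanged in 133 and was gained in 16. The exception was Wnt5b by 1439373_x_at, which ran from −0.55 to 0.10 with 1 array left out (0.10 without control 1). The filter, intensity trend, gene level and replicate block settings cannot change a difference, so the signs under them were fixed in advance. All refits reuse the same arrays, so the count of negative values is not independent support. Of the 7 tested probe sets 0 were called as reported, 1 at the gene level, 1 with median centring, 1 with the replicate block (Dkk1 each time, adjusted p = 0.0337 with the block), 2 with the spike-in ratio block (Dkk1 and Lef1), 4 with array quality weights and 0 to 3 with 1 array left out. Other Wnt pathway genes called numbered 0 of 57 as reported and 0 to 2 with 1 array left out (both lower, without mutant 3). With the spike-in ratio block 7 of the 57 were called (3 higher and 4 lower in mutant). That block called 2.06% of all tested probe sets higher and 2.67% lower. With array quality weights 8 of the 57 were called (1 higher and 7 lower), in a fit that called 1196 of all 11731 tested probe sets. Over all probe sets the reported 81 calls (52 lower in mutant) became 48 (34) with a filter at the 60th percentile, 123 (80) at the gene level, 555 (313) with the spike-in ratio block and 1196 (670) with array quality weights, which ran from 0.315 for control 1 to 4.29 for control 3. With 1 array left out the range was 24 to 149 (13 to 91 lower): 24 without mutant 1, 29 without mutant 2, 149 without mutant 3, 125 without control 1, 27 without control 2 and 26 without control 3. The cause was not tested. With the replicate block 120 were called, and the numbers alone do not show that pools were paired. Detection calls were not used, so it is not known which of the dim probe sets stood above background.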
